A study of Mus musculus with 20 samples.

Results

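The genes described here serve DNA replication and nucleotide supply. They are the factors that load and fire replication origins, the replicative helicase, the sliding clamp and its loader, the polymerases, the enzymes that finish the lagging strand, the enzymes that make deoxynucleotides and the factors that supply histones to new DNA. They were chosen by name as 36 genes, and 35 of them had at least 1 non-control probe whose accession RefSeq (GRCm38.p6) assigns to the gene. Gins1, a subunit of the GINS complex, had no probe so named and has no value here. The 35 genes were read by 41 of the 41174 probes of the array, with 1 probe for each of 29 genes and 2 probes for each of 6 genes (Cdc6, Dut, Pold1, Rfc2, Tyms and Uhrf1). All 41 probes were well above background on all 20 arrays, so the filter on dim probes removed none of them.

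The arrays measured RNA of mouse embryonic fibroblasts, or MEFs (connective tissue cells derived from embryos), after 24 hours in culture with serum. The serum came from female mice of the inbred strain C3H/HeN. There were 4 groups of 5 arrays: serum of mice irradiated with 4 Gy in a 10-day set (4 Gy serum), serum of non-irradiated mice of that set (control serum, 0 Gy), serum of mice irradiated with 8 Gy in a 20-day set (8 Gy serum), and serum of non-irradiated mice of that set. The irradiation regime is written as L/MDR and is not expanded in the labels, and nothing there tells if the days count the exposure itself or the wait before serum collection. Dose and set change together and cannot be told apart. Nothing in the labels says that replicates are separate cultures or serum donors, or gives the strain of the MEFs, so the p-values reflect no more than the spread among these arrays, and that spread may be technical.

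Replication starts at origins that are licensed in G1, when the origin recognition complex, Cdc6 and Cdt1 load the MCM helicase (Mcm2 to Mcm7) onto DNA. In S phase Cdc45 and GINS turn the helicase on, primase and the polymerases copy both strands on the clamp Pcna, and Fen1 and Lig1 join the lagging strand pieces. Most of these genes are transcribed around the start of S phase under E2F factors, and serum is the classic signal that brings resting fibroblasts back into the cell cycle.

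E2F words, the letters that E2F factors are known to read, were searched in the promoters of these genes to show what the members share. RefSeq promoters (GRCm38.p6, 300 bases, of which 250 lie before and 50 after the annotated start) were matched for 30 of the genes; Gins1, Gins2, Gmnn, Mcm4, Pole and Rfc2 were not matched. The words TTTCCCGC, TTTCGCGC, TTTGCCGC and TTTGGCGC were read on both strands and may overlap each other. At least 1 of them stood in 13 of the 35 member promoters (37.1%), against 744 of all 32851 promoters in the table (2.26%). The shorter word CCAAT, read by NF-Y, stood in 60.0% of member promoters and 37.4% of all promoters. Counted by gene, E2F words stood in 1 of the 4 matched genes that were higher with 8 Gy serum, in 7 of the 14 that were lower and in 5 of the 12 that did not pass the threshold. The 6 promoters printed here hold both kinds of case. Mcm3 was higher with 8 Gy serum, Mcm6 and Orc1 were lower and Mcm5 did not pass the threshold, and all of these hold E2F words, while Orc6 and Slbp were lower and hold none of the words in this window. Capitals mark the E2F words, and the overlapping words of Mcm5 and Mcm6 form 1 run of capitals.
Mcm3 (chr1:20820263-20820562, minus strand): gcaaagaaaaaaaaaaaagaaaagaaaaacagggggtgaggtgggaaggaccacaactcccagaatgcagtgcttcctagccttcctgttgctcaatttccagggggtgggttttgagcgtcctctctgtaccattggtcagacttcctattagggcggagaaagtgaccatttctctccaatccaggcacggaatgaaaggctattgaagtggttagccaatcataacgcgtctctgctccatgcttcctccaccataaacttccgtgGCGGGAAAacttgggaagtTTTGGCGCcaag
Mcm5 (chr8:75109259-75109558, plus strand): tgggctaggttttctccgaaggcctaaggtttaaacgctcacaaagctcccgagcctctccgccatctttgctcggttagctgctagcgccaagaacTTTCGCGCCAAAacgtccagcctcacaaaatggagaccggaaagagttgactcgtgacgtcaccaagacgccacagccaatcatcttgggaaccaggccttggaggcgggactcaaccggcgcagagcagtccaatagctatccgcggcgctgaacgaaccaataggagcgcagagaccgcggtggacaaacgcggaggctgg
Mcm6 (chr1:128359656-128359955, minus strand): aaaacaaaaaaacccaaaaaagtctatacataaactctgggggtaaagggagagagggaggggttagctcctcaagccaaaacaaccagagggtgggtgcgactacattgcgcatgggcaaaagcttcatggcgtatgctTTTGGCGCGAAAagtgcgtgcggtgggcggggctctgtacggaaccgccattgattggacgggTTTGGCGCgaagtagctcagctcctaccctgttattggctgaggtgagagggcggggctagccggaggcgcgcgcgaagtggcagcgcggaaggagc
Orc1 (chr4:108579204-108579503, plus strand): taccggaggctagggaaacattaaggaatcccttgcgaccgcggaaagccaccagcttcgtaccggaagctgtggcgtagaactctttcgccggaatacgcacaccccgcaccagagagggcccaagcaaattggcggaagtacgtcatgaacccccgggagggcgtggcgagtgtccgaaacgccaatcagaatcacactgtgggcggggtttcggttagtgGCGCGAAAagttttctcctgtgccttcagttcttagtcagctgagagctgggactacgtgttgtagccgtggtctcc
Orc6 (chr8:85299382-85299681, plus strand): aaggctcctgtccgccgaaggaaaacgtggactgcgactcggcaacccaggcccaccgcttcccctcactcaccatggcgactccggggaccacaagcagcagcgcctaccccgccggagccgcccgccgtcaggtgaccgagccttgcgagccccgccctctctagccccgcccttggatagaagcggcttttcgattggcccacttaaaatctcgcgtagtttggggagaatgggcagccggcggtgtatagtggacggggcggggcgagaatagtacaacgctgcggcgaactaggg
Slbp (chr5:33652525-33652824, minus strand): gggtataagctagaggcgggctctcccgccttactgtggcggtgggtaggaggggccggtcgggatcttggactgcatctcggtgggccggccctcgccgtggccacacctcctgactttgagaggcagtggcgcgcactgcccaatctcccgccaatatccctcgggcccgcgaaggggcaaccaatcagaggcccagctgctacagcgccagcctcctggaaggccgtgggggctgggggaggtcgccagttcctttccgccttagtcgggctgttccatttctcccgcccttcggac

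**Figure D1:**
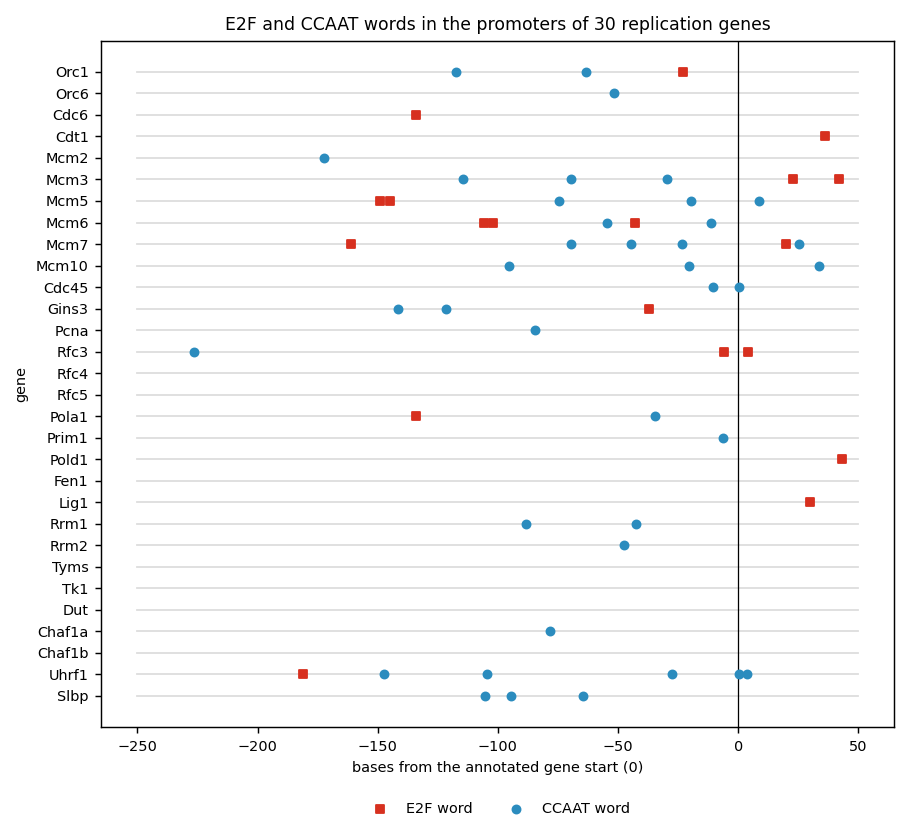
Positions of E2F words (squares) and CCAAT words (circles) in the promoters of 30 replication genes, in bases from the annotated gene start (0); for genes with several promoters, words of all are drawn on 1 line. E2F words were found in 13 of these genes, with 3 of them in Mcm6.

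Levels are log2 processed intensities minus the 75th percentile of their own array, so a level of 0 equals that percentile and 1 unit is a doubling. They compare groups for 1 probe and do not rank genes. On single arrays 56.8% to 67.2% of probes were well above background, and the number of arrays limits the precision. The arrays lay on 7 slides. In the 10-day set slide 2 carried 2 arrays of 4 Gy serum and 1 of control serum, while in the 20-day set every slide carried 1 group, so slide and serum cannot be told apart there. The sets were scanned on different days, so set and scan cannot be told apart either. All 17 probes of 10 fibroblast marker genes were well above background in every group. Macrophage markers stood apart by set: their summed level was 5.41 to 5.71 with 8 Gy serum and 5.35 to 5.87 with control serum of the 20-day set, against 1.27 to 1.52 with 4 Gy serum and 0.82 to 1.33 with control serum of the 10-day set. In these bulk samples fewer cells of a type and less RNA per cell cannot be told apart.

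**Figure D2:**
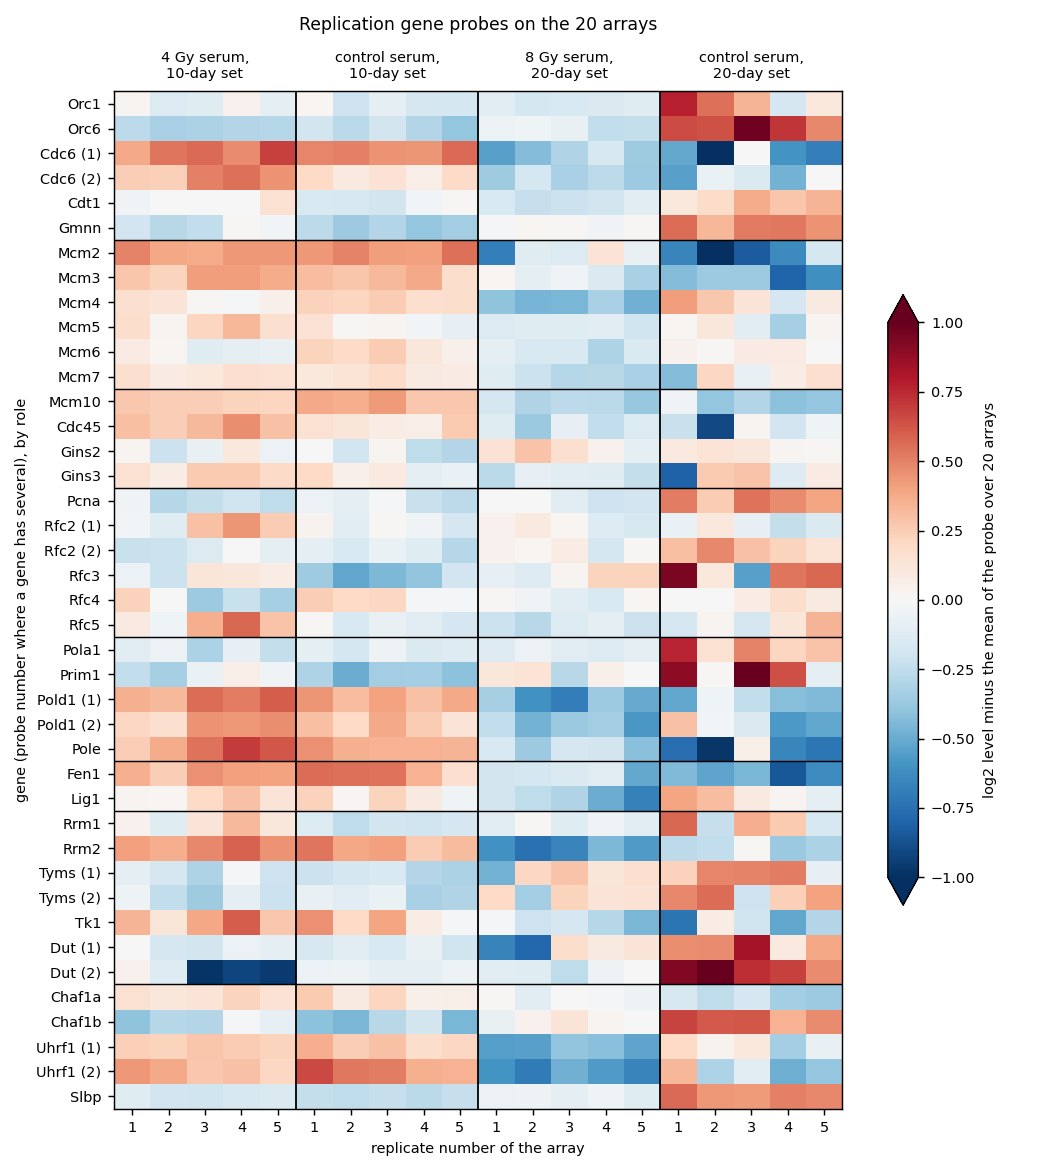
Levels of the 41 replication gene probes (rows, by role) on the 20 arrays (columns, by group and replicate number), as log2 level minus the mean of the probe over 20 arrays, with colours capped at 1 in either direction. The 20-day control arrays are the ones that stand apart for Orc6, Slbp, Pcna and Chaf1b, and the 10-day arrays lie close together for most probes.

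The first comparison asked how replication genes differed between 4 Gy serum and control serum of the 10-day set. None of the 41 probes passed the threshold (limma, adjusted p under 0.05), against 5.25% of the 26227 probes tested. At an unadjusted p under 0.05 there were 9 (22.0%), against 21.3% of all probes. The median log2 change of the members was 0.07 against -0.00 for all probes, with 28 positive and 13 negative values. The groups did not overlap on any array for 4 of the 41 probes, against 8.32% of all probes. Rfc5, a subunit of the clamp loader, had the smallest adjusted p, with a log2 change of 0.35 ± 0.11 (SE, n = 5 each, limma adjusted p = 0.0630). It measured 2.15, 2.02, 2.43, 2.63 and 2.35 with 4 Gy serum and 2.07, 1.91, 1.99, 1.95 and 1.89 with control serum. Mcm6 had a log2 change of -0.20 ± 0.06 (limma adjusted p = 0.0666). Of 19 macrophage probes tested 4 were higher with 4 Gy serum, and of 17 fibroblast probes 1 was lower. Over all probes 3.85% were higher and 1.4% lower.

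Within the 4 Gy group the slide moved with several of these values. For the probe A_52_P480360 of Dut, the dUTPase that keeps uracil out of DNA, the 2 arrays on slide 2 measured 2.99 and 2.82 and the 3 on slide 3 measured 1.97, 2.03 and 1.99. Control serum gave 2.85 to 2.89 over slides 1 and 2. The low values were those of slide 3 alone, and the other Dut probe measured 3.46 to 3.64 with 4 Gy serum and 3.44 to 3.56 with control serum. Slide 3 minus slide 2 was also -0.42 for Rfc4, 0.38 for Rfc5 and 0.40 for the Rfc2 probe A_51_P254912 in the 4 Gy group. Within slide 2 the 4 Gy minus control difference was 0.20 for Rfc5, 0.13 for Rfc4 and 0.01 for this Dut probe, and its median over members was 0.07. Without slide 2, which leaves 3 arrays of 4 Gy serum on 1 slide and 4 of control serum on another, 7 member probes (17.1%) passed the threshold, 4 higher and 3 lower, against 17.4% of all probes. With slide as a random block no member probe passed, against 0.00381% of all probes. With slide as a fixed block no member probe passed either, against 0.103% of all probes. Of the 1378 calls over all probes in the main fit, 0 held in every setting of this comparison. Beyond these fits the part of the slide in these values was not tested.

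The second comparison asked the same of 8 Gy serum and control serum of the 20-day set. Here 24 of the 41 probes passed the threshold, 5 higher and 19 lower. Over all probes tested 48.0% passed it, 20.6% higher and 27.4% lower, so the members' share of higher calls was 12.2% and that of lower calls 46.3%. By gene, 5 rose (Mcm2, Mcm3, Pole, Fen1 and Chaf1a), 17 fell and 13 did not pass. The median log2 change of the members was -0.23, against -0.06 for all probes. The groups did not overlap for 16 member probes (39.0%), 2 higher and 14 lower, against 29.5% of all probes, 11.4% higher and 18.1% lower. Scaling each array to its median moved the median of all probes to -0.20 and the member calls to 2 higher and 26 lower, with 14.5% of all probes higher and 37.9% lower in that setting. Other scalings brought the members' share of calls close to that of all probes. Quantile normalization gave 5 higher and 14 lower (46.3%, all probes 44.6%), and cyclic loess 5 higher and 15 lower (48.8%, all probes 45.3%). Normexp background correction with quantile normalization gave 4 higher and 15 lower (46.3%, all probes 45.3%). In some settings that did not change the scaling method the members' share stayed above that of all probes. It was 62.9% with 1 probe per gene (all probes 46.0%) and 43.9% with slide as a random block (all probes 31.9%). With only the arrays of the groups compared it was 48.8% (all probes 37.7%). The authors' deposited values also gave 48.8% (all probes 37.5%).

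Of the 24 calls, 10 held in every setting of this comparison that tested the probe, and all 10 were lower: Orc6, Cdt1, Gmnn, Mcm4, Pcna, Pola1, Chaf1b, Slbp, the Dut probe A_52_P480360 and the Uhrf1 probe A_52_P314705. A setting that left a probe out, as 1 probe per gene did with the dimmer probe of a gene, was not counted against it. These are 41.7% of the member calls, and over all probes 40.9% of calls held in every setting. None of the 5 higher calls held in every setting. Over all probes 41.6% of the higher calls and 40.3% of the lower calls held. Of the members' lower calls 52.6% held. With the replicate number as a block 16 probes (39.0%) passed, 2 higher (Mcm3 and Fen1) and 14 lower, against 36.6% of all probes. Without slide 6, which holds 3 of the 5 arrays with 8 Gy serum, 14 passed (34.1%), 1 higher (Mcm2) and 13 lower, against 33.8% of all probes, so that the members' share was close to that of all probes. Without slide 4, which holds 3 of the 5 control arrays, 21 passed (51.2%), against 49.9% of all probes. There the log2 values were -0.11 for Orc1 (adjusted p = 0.296), 0.23 for Mcm2 (0.238), -0.27 for Prim1 (0.162), -0.17 for the Uhrf1 probe A_51_P491742 (0.139), -0.45 for the Dut probe A_51_P418469 (0.0911) and -0.19 for the Rfc2 probe A_52_P981680 (0.0750), and none was called. The changes of Mcm7, Lig1 and the Uhrf1 probe A_52_P314705, still called, were -0.37, -0.35 and -0.28 without that slide. Probes not called in the main fit passed without slide 4: Rfc3 (-0.50, limma adjusted p = 0.00234), Rfc5 (-0.42, 0.0113) and the Cdc6 probe A_52_P219473 (0.28, 0.0210). Without slide 5 the calls of Mcm7, Pole and Fen1 were lost and Orc1 changed by -0.70. There the Pold1 probe A_52_P333178 (-0.45, limma adjusted p = 0.00272) and the Tyms probe A_52_P292651 (-0.34, 0.0431) passed. Without slide 7 the calls of Mcm2, Mcm6, Mcm7, Prim1 and Pole were lost. Leaving out single arrays ended the calls of Mcm7 and Pole in 7 of 10 cases each and that of Prim1 in 3, with adjusted p up to 0.115, 0.125 and 0.0719 for Mcm7, Pole and Prim1. The control arrays of this set spread more than the others: the median SD of member probes was 0.10 with 8 Gy serum, against 0.21 with its control serum, 0.11 with 4 Gy serum and 0.08 with control serum of the 10-day set. Cell type markers were counted in the same comparison, in which 48.0% of all probes passed, 20.6% higher and 27.4% lower. Of 17 fibroblast probes 9 were higher and 1 lower with 8 Gy serum, and of 19 macrophage probes tested 2 were higher and 4 lower, while the summed macrophage levels of the 2 groups overlapped. Of 4 endothelial probes tested 3 were lower, and of 6 epithelial probes 1 was higher. The part of these markers in the changes of replication genes was not tested.

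**Figure D3:**
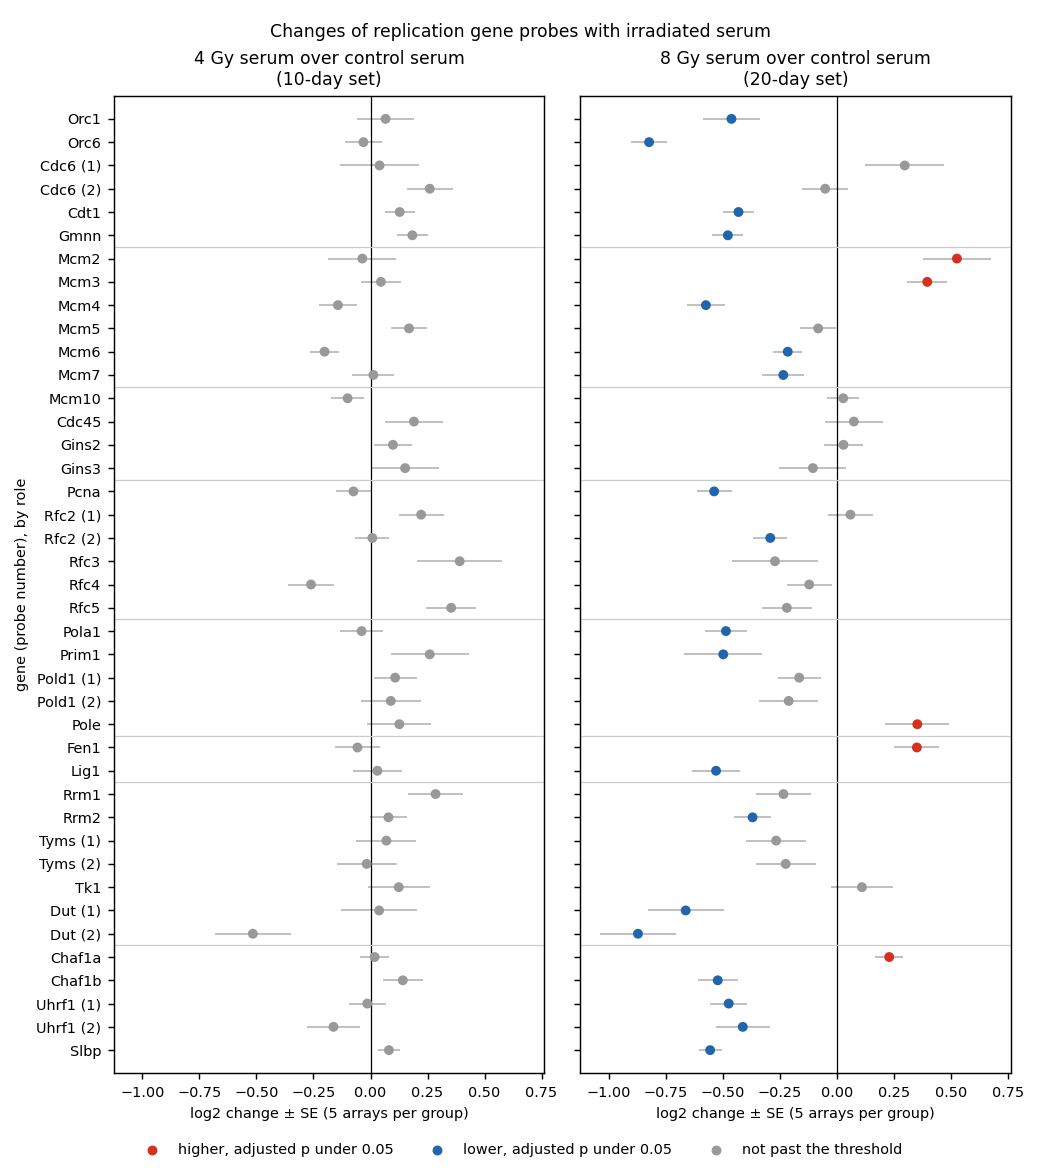
Log2 change (points) ± SE (bars) of the 41 probes by role, for 4 Gy over control serum (left) and 8 Gy over control serum (right), 5 arrays per group. No probe passed the threshold on the left, and on the right 5 were higher (red) and 19 lower (blue).

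**Figure D4:**
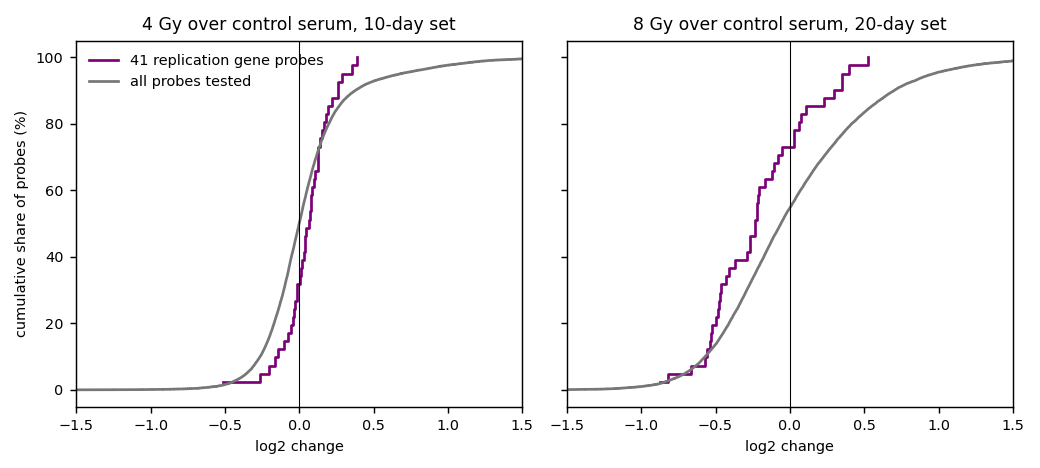
Cumulative share of probes (%) by log2 change, for the 41 replication gene probes and all probes tested, in the 10-day (left) and 20-day (right) comparisons. The member curve runs left of the curve of all probes over most of the right panel, with medians of -0.23 and -0.06.

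Of the origin licensing factors, Orc1, Orc6, Cdt1 and Gmnn fell with 8 Gy serum and Cdc6 did not pass. Orc6, the smallest subunit of the origin recognition complex, measured 3.61, 3.62, 3.59, 3.42 and 3.43 with 8 Gy serum and 4.31, 4.30, 4.64, 4.38 and 4.15 with control serum. Every 8 Gy array lay below every control array, and the log2 change was -0.82 ± 0.08 (SE, n = 5 each, limma adjusted p = 2.24e-07), a level 1.77-fold lower. In the 10-day set it measured 3.34 to 3.40 with 4 Gy serum, below every 8 Gy array. Control serum of that set gave 3.28 to 3.48, which overlapped the 8 Gy values. Cdt1, which brings the MCM helicase to origins, measured 2.33 to 2.45 with 8 Gy serum and 2.66 to 2.93 with control serum, a log2 change of -0.43. Its inhibitor geminin (Gmnn) measured 3.67 to 3.73 with 8 Gy serum and 4.03 to 4.26 with control serum, a log2 change of -0.48, and neither gene's groups overlapped. Orc1, the subunit with ATPase activity that is made anew in each G1, measured -2.01 to -1.94 with 8 Gy serum and -2.00 to -1.06 with control serum, and 1 control array lay within the 8 Gy range. Its log2 change of -0.46 had an adjusted p of 0.0537 with the replicate block, against 0.00467 without it, and was -0.11 without slide 4. Cdc6, which loads the helicase together with Cdt1, had log2 changes of 0.30 and -0.05 for its 2 probes, and neither passed.

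The MCM helicase subunits split in direction although they work as 1 ring. Mcm2 and Mcm3 rose, Mcm4 fell, Mcm5 did not pass, and Mcm6 and Mcm7 passed downward with small values that turned in other settings. Mcm2 measured 0.65, 1.22, 1.20, 1.48 and 1.27 with 8 Gy serum and 0.68, 0.13, 0.51, 0.70 and 1.16 with control serum. The groups overlapped, and the log2 change of 0.53 ± 0.15 (SE, n = 5 each) had a limma adjusted p of 0.00712 without and 0.0644 with the replicate block, and was 0.23 (adjusted p = 0.238) without slide 4. Mcm3 measured 1.12, 1.00, 1.06, 0.95 and 0.77 with 8 Gy serum and 0.67, 0.74, 0.73, 0.30 and 0.49 with control serum. Each 8 Gy array lay above each control array, with a log2 change of 0.40 ± 0.09 (limma adjusted p = 0.00109), which was 0.13 with an adjusted p of 0.432 with normexp background correction and quantile normalization together. Mcm4 measured 3.93, 3.87, 3.87, 4.00 and 3.85 with 8 Gy serum and 4.75, 4.60, 4.46, 4.16 and 4.42 with control serum. The groups did not overlap, and the log2 change was -0.57 ± 0.08 (limma adjusted p = 2.25e-05). Mcm5 had a log2 difference of -0.08 and lay within 2.23 to 2.31 with 8 Gy serum and 2.09 to 2.54 with control serum. Mcm6 had a log2 change of -0.21, which was 0.05 under quantile normalization and under cyclic loess, and it was also not called with the replicate block (adjusted p = 0.0907). Mcm7 had a log2 change of -0.23, which was 0.14 with normexp and quantile normalization together and -0.00 with quantile normalization alone, and was not called with the replicate block (adjusted p = 0.218).

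No gene of helicase activation passed the threshold with 8 Gy serum. Log2 differences were 0.03 for Mcm10, which helps to open the loaded helicase, 0.08 for Cdc45, the part of the active helicase that binds MCM and GINS, and 0.03 and -0.10 for the GINS subunits Gins2 and Gins3. Gins2, the brightest of these probes over all arrays, measured 1.91, 2.05, 1.93, 1.81 and 1.68 with 8 Gy serum and 1.87, 1.91, 1.88, 1.80 and 1.78 with control serum, and the control values lay within the 8 Gy range. For Cdc45 the 8 Gy arrays lay between -1.10 and -0.81 and the control arrays between -1.63 and -0.70.

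Of the clamp and clamp loader genes, Pcna fell, 1 of the 2 Rfc2 probes fell, and Rfc3, Rfc4 and Rfc5 did not pass. Pcna, the ring that holds the polymerases on DNA, measured 5.01, 5.00, 4.89, 4.80 and 4.82 with 8 Gy serum and 5.52, 5.26, 5.55, 5.48 and 5.40 with control serum. The groups did not overlap, and the log2 change was -0.54 ± 0.08 (SE, n = 5 each, limma adjusted p = 1.64e-05). It was 4.72 to 4.97 with 4 Gy serum and 4.75 to 4.99 with control serum of the 10-day set. The probes of Rfc2 disagreed: A_52_P981680 changed by -0.29 (limma adjusted p = 0.00335) while A_51_P254912 had 0.06 and was not called. The first was -0.05 under quantile normalization and -0.06 under cyclic loess, and was not called in either. The clamp loader subunits Rfc3, Rfc4 and Rfc5 had log2 differences of -0.27, -0.12 and -0.22, and Rfc3 spread from -0.80 to 0.68 over the control arrays.

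Among polymerases and primase, Pola1 and Prim1 fell, Pole rose and both Pold1 probes did not pass. Prim1, the primase subunit that makes RNA primers, measured 2.38, 2.40, 1.99, 2.31 and 2.27 with 8 Gy serum and 3.16, 2.28, 3.31, 2.91 and 2.18 with control serum. The control arrays spanned more than a log2 unit and overlapped the 8 Gy arrays, and the log2 change of -0.50 ± 0.17 (SE, n = 5 each, limma adjusted p = 0.0228) had an adjusted p of 0.134 with the replicate block. Pola1, the catalytic subunit of the polymerase that extends those primers, was steadier, with 1.32 to 1.40 with 8 Gy serum, all below the 1.61 to 2.22 with control serum. Pole, the catalytic subunit of the leading strand polymerase, measured 1.01, 0.80, 0.99, 0.97 and 0.74 with 8 Gy serum and 0.39, 0.19, 1.22, 0.50 and 0.44 with control serum. A single control array, replicate 3, lay above all 8 Gy arrays, and the log2 change of 0.35 ± 0.14 (limma adjusted p = 0.0446) had an adjusted p of 0.101 with the replicate block. The probes of Pold1, the catalytic subunit of the lagging strand polymerase, had log2 differences of -0.16 and -0.21.

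The pair of enzymes that finish Okazaki fragments went opposite ways. Fen1, the nuclease that removes the displaced flap, measured 1.22, 1.23, 1.26, 1.29 and 0.90 with 8 Gy serum and 0.97, 0.88, 0.95, 0.56 and 0.78 with control serum. Only replicate 5 of the 8 Gy arrays lay among the control values, and the log2 change was 0.35 ± 0.10 (SE, n = 5 each, limma adjusted p = 0.00667). Lig1, the ligase that seals the nick, measured 3.00, 2.93, 2.89, 2.69 and 2.51 with 8 Gy serum and 3.58, 3.49, 3.28, 3.22 and 3.09 with control serum. Its groups did not overlap, with a log2 change of -0.53 ± 0.11 (limma adjusted p = 0.000517), while with normexp and quantile normalization together the change was 0.03 for Lig1 and 0.19 for Fen1 and neither was called.

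Of the nucleotide supply enzymes, Dut fell on both probes and Rrm2 fell, while Rrm1, Tyms and Tk1 did not pass. The Dut probe A_52_P480360 measured 2.83, 2.83, 2.70, 2.89 and 2.95 with 8 Gy serum and 3.87, 3.95, 3.68, 3.63 and 3.42 with control serum. The groups did not overlap, and the log2 change of -0.87 ± 0.17 (SE, n = 5 each, limma adjusted p = 0.000324) was the largest of all members, a level 1.83-fold lower. The Dut probe A_51_P418469 measured 2.97, 2.85, 3.82, 3.73 and 3.76 with 8 Gy serum and 4.10, 4.11, 4.47, 3.73 and 4.02 with control serum. Its 8 Gy arrays fell into a low pair, replicates 1 and 2, and a higher trio. The low pair lay on slide 6 together with replicate 3 of the trio, and the rest of the trio lay on slide 7. Slide 6 minus slide 7 was -0.53 for this probe. Its change between the sera was -0.66, or -0.09 with normexp and quantile normalization together and -0.41 with quantile normalization alone. In neither of these 2 settings was it called. It was -0.34 without slide 6 (limma adjusted p = 0.0619) and -0.88 without slide 7. Rrm2, the small subunit of ribonucleotide reductase that is made in S phase, measured 1.52 to 1.82 with 8 Gy serum and 1.89 to 2.28 with control serum, with a log2 change of -0.37. Rrm1, its large subunit, had a log2 difference of -0.23. Tyms, which makes dTMP, had -0.27 and -0.22 on its probes A_52_P292651 and A_51_P398366, and the second was 0.35 (adjusted p = 0.0166) with normexp and quantile normalization together. Tk1, the salvage kinase for thymidine, had a log2 difference of 0.11.

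Of the chromatin and histone supply genes, Chaf1b, Slbp and both Uhrf1 probes fell and Chaf1a rose. Slbp, which binds the stem-loop of histone mRNAs, measured 2.97, 2.97, 2.94, 2.98 and 2.91 with 8 Gy serum and 3.59, 3.46, 3.45, 3.53 and 3.51 with control serum. The groups did not overlap and both were tight, and the log2 change was -0.55 ± 0.05 (SE, n = 5 each, limma adjusted p = 1.06e-07), the smallest adjusted p of the members. Chaf1a and Chaf1b, subunits of the complex that places histones on new DNA, went opposite ways. Chaf1a measured 1.18, 1.07, 1.17, 1.16 and 1.12 with 8 Gy serum and 1.01, 0.91, 1.00, 0.83 and 0.81 with control serum. These groups did not overlap either, and the change of 0.23 ± 0.06 (limma adjusted p = 0.00535) had an adjusted p of 0.0677 with the replicate block and was 0.09 and not called when arrays were scaled to their median. Chaf1b measured 2.15 to 2.35 with 8 Gy serum and 2.57 to 2.90 with control serum, a change of -0.52. Uhrf1, which brings maintenance DNA methylation to new DNA, changed by -0.47 (A_52_P314705) and -0.41 (A_51_P491742), and the second had an adjusted p of 0.0544 with the replicate block.

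**Figure D5:**
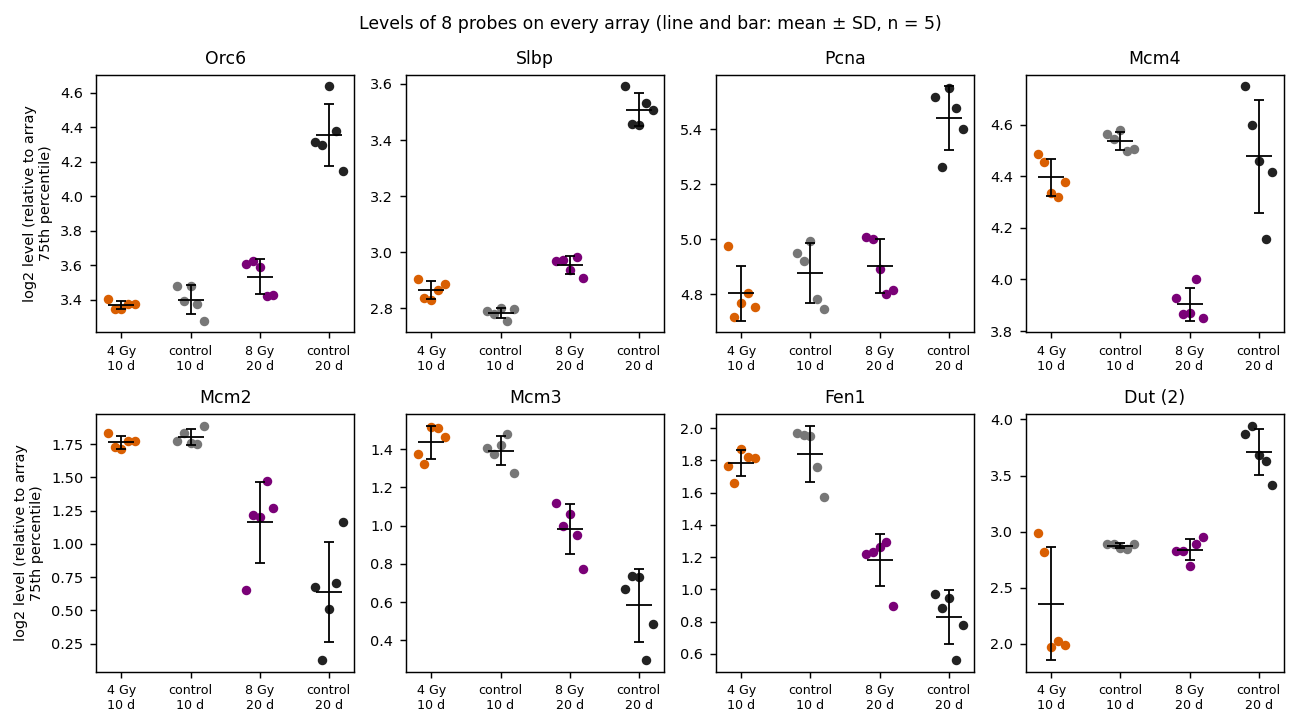
Log2 level of 8 probes on every array (points), with mean ± SD (n = 5) for 4 Gy and control serum of the 10-day set and 8 Gy and control serum of the 20-day set; Dut (2) is the probe A_52_P480360. Orc6, Slbp, Pcna, Mcm4 and this Dut probe separate 8 Gy serum from its control downward, Mcm3 upward, and the low trio of Dut values at 10 days is slide 3.

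The responses of the sets were then compared directly, as the 8 Gy response minus the 4 Gy response in the same fit. They differed for 20 of the 41 probes, 3 higher and 17 lower, against 36.4% of all probes, 15.3% higher and 21.1% lower. The lowest differences were -0.79 ± 0.11 for Orc6 and -0.76 ± 0.24 for Prim1, and the higher ones were those of Mcm2, Fen1 and Mcm3, between 0.35 and 0.56. Rfc5 and Rrm1 differed between the responses without passing in either comparison, by -0.57 and -0.52. Of the 20 differences, those of Orc6, Gmnn, Chaf1b and Slbp held in every setting that tested the probe (20.0% of them, against 21.8% of such calls over all probes). With scaling to the array median none of the 3 higher ones passed. Leaving out slide 1, with 4 of the 5 control arrays of the 10-day set, left 5 differences (12.2%), against 10.3% of all probes, and dose, days, slide and scan cannot be told apart here.

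The control sera of the sets also differed, in a comparison with no irradiated serum. Of the 41 probes 32 passed, 17 higher and 15 lower in the 20-day set, against 67.7% of all probes, 35.4% higher and 32.3% lower. Orc6 was 0.96 higher with control serum of the 20-day set, Chaf1b 0.90 higher and Slbp 0.73 higher, and for each of these all arrays of the sets stood apart. That was so for 24 of the 41 probes, against 50.7% of all probes. Mcm2 was lower, with a log2 change of -1.17, as were Cdc6 (-1.15 and -0.38), Fen1 (-1.01) and Pole (-0.98). Macrophage markers moved with the set, with 19 of 19 probes tested higher in the 20-day control arrays, a median log2 change of 4.15, and fibroblast markers had 2 higher and 13 lower of 17. Their part in the values of replication genes was not tested. The comparison of 8 Gy serum with its control and this one share the 20-day control arrays, so the values of a gene in them are not independent.

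Another 80 genes of the same pathways, read by 121 tested probes, were counted in the same fit. With 4 Gy serum 2 probes were higher and 2 lower, against 3.85% and 1.4% of all probes, and with 8 Gy serum 19 were higher and 41 lower, with a median log2 change of -0.13. These 60 calls are 49.6% of the probes, against 48.0% of all probes (20.6% higher and 27.4% lower). Other origin, helicase and firing factors had 4 higher and 6 lower of 25 probes. Mcmbp, which binds MCM complexes, gave opposite values on its probes (0.62, 0.42, 0.39 and -1.02). Among subunits of the origin recognition complex Orc3 changed by 0.49 on one probe (0.06 and 0.19 on the others) and Orc4 by -0.86 (-0.73 and -0.35 on the others). Other fork, polymerase and clamp loader factors had 4 higher and 15 lower of 34, among them the topoisomerase Top2a (0.88), the polymerase delta subunit Pold3 (0.73 on one probe, -0.16 and -0.49 on the others), the RNase H2 subunit Rnaseh2b (-0.81) and the single-strand binding subunit Rpa3 (-0.77).

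Other nucleotide supply enzymes had 6 higher and 11 lower of 32 probes. Dtymk, which phosphorylates dTMP, changed by -0.83 (-0.46 on its second probe), while the mitochondrial thymidine kinase Tk2 changed by 0.57 and the purine synthesis enzyme Gart by 0.52. Other replication-coupled chromatin factors had 1 higher and 6 lower of 12, with Rbbp4 at 0.53 on one probe and -0.34 and -0.08 on the others, the histone chaperone Asf1b at -0.36 and the FACT subunit Ssrp1 at -0.35. Among E2F and pocket protein regulators 4 probes were higher and 3 lower of 18: the E2F activators E2f1 (0.53) and E2f3 (0.38 on one probe, 0.23 and -0.21 on the others, which did not pass) were higher, and the repressor E2f8 (-0.55) and the pocket protein gene Rb1 (-0.50) were lower. The first E2f3 probe was also one of the lower probes with 4 Gy serum, with a log2 change of -0.31 (limma adjusted p = 0.0458).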

How the data were processed

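The deposited scanner files hold a processed intensity per spot, which the authors extracted with Agilent Feature Extraction (10.5.1.1 per the file headers, 11.0 per the submitters' processing notes). Raw spot and background intensities and quality marks of another kind (0 or 1) were read from the same files. The authors' deposited value table holds log2 values centred within a set, with column medians of -0.115 to 0.224. For the correlation, each probe's median over its set was subtracted from the values used here. The deposited values then correlated with them at 0.996 or more on each array. The deposited table served as an alternative and does not state its scale or centring. Spots marked as outliers (50 to 181 per array) were left out, spots of a probe were averaged, and log2 processed intensity minus the array's 75th percentile was used.

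The 26227 probes that were above background (Feature Extraction's mark) on each of the 5 arrays in some group were tested with limma 3.58.1 in R 4.3.3, in 1 fit of 4 groups with Benjamini-Hochberg adjustment over all probes and a threshold of 0.05. That fit used 1 spread per probe for all 4 groups, although the 20-day control arrays spread more than the others. The SE of a change therefore does not rest on the groups compared alone. With only the arrays of the groups compared, 13.0% of all probes passed with 4 Gy serum and 37.7% with 8 Gy serum. In the main fit these shares were 5.25% and 48.0%. On simulated data with 25938 probes, 200 of them were changed in the 8 Gy comparison. There 38% of changes of 0.5 and 82% of changes of 1 on the log2 scale were recovered. In the real 8 Gy comparison 48.0% of probes passed, which makes the adjusted threshold less strict, so these shares do not carry over to it. Probes were named through RefSeq GRCm38.p6, which named 24844 probes. Within the 20-day set same-numbered arrays had correlated deviations (0.131 to 0.402), which met the rule that every pair be over 0.1. In the 10-day set 3 of 5 pairs were over 0.1 (-0.0503 to 0.163), short of that rule. Arrays of different numbers were not compared and the labels give no pairing, so this does not settle if the numbers pair the arrays. The main fit used no pairing, and the replicate block was an alternative. Members, lists and tests were chosen with earlier results of these data known. Every member is named by role; values of every array are given for the called probe with the largest change with 8 Gy serum in each role, for the largest opposite one, and for the brightest probe where none was called. Of each other list the 2 highest and 2 lowest called probes are named, except 1 that is not reported here. Alternatives changed the scaling, background correction, dim-probe filter, probe choice, slide or replicate block, arrays and source of values.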

Additional observations from a re-analysis of the deposited data

Results flagged for a closer look

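The responses to irradiated serum differed between the sets (8 Gy response minus 4 Gy response, limma interaction in the same fit) for 20 probes. Lower ones were, on the log2 scale, Orc6 (-0.79), Prim1 (-0.76), Dut probe A_51_P418469 (-0.70), Chaf1b (-0.66), Gmnn (-0.66), Slbp (-0.64), Rfc5 (-0.57), Lig1 (-0.56), Cdt1 (-0.56), Orc1 (-0.53), Rrm1 (-0.52), Pcna (-0.46), Uhrf1 probe A_52_P314705 (-0.46), Rrm2 (-0.45), Pola1 (-0.45), Mcm4 (-0.43) and Rfc2 probe A_52_P981680 (-0.30). Higher ones were Mcm2 (0.56), Fen1 (0.41) and Mcm3 (0.35).

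Single arrays stood far from the other 4 of their group in 9 of 168 sets examined, where chance flags about 1 in 20. High arrays were Cdt1 in 4 Gy replicate 5 (2.71) and Pole in 10-day control replicate 1 (1.62). Low arrays with 8 Gy serum were Mcm5 in replicate 5 (2.23), Mcm6 in replicate 4 (4.50), Rfc2 probe A_52_P981680 in replicate 4 (4.05), Fen1 in replicate 5 (0.90), Tyms probe A_52_P292651 in replicate 1 (2.77) and Tyms probe A_51_P398366 in replicate 2 (3.40). The low array with control serum was Cdc45 in 20-day replicate 2 (-1.63).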

How the results depend on the processing

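With 8 Gy serum the member median of -0.23 was -0.38 with scaling to the array median (all probes -0.20) and -0.084 under quantile normalization (all probes -0.035). It was -0.079 under cyclic loess (all probes -0.018) and -0.12 with normexp and quantile together (here normexp, all probes -0.030). Calls ran from 14 without slide 6 to 28 with median scaling. Single probes reversed: Mcm6 to 0.047 under quantile normalization and 0.047 under cyclic loess, and after normexp Mcm7 to 0.14, Lig1 to 0.035 and Tyms probe A_51_P398366 to 0.35. Without slide 6 the calls of Orc1, Mcm3, Mcm7, Prim1, Pole, Fen1, Rrm2, Chaf1a, Dut probe A_51_P418469 and Uhrf1 probe A_51_P491742 were lost. With the replicate block 16 probes were called at 20 days (all probes 36.6%) and 1 at 10 days (main 0, all probes 12.0%). That block gave 19 of the differences (main 20, all probes 36.9%) and 29 between controls (main 32, all probes 60.0%). Member calls with 4 Gy serum (main 0) were 1 with median scaling, 2 under quantile normalization, 2 after normexp, 3 with only the arrays compared, 3 in the deposited table, 7 without slide 2 and 0 to 4 without single arrays; in the same order 5.65%, 6.13%, 5.78%, 13.0%, 13.0%, 17.4% and 0.145% to 9.58% of all probes were called, and 12.0% with the replicate block. Differences called (main 20) were 13 after normexp, 11 with slide as a random block, 5 without slide 1, 11 without slide 3 and 10 without slide 6 (all probes 34.9%, 20.2%, 10.3%, 25.8% and 25.3%); their median (main -0.30) was -0.20 under quantile normalization, -0.19 under cyclic loess, -0.20 after normexp and -0.41 without slide 5. Between controls, 18 probes were called without slide 1 (43.9%, all probes 42.8%), and the median (main -0.06) was 0.074 with median scaling, -0.29 under quantile normalization, -0.26 under cyclic loess, -0.19 after normexp and 0.085 without slide 1. Other pathway probes called with 4 Gy serum (main 4, 3.31%, all probes 5.25%) were 2 with median scaling (1.65%, all probes 5.65%) and 2 after normexp (1.65%, all probes 5.78%). There were 0 with no filter (all probes 2.24%), with 1 probe per gene (5.97%) and with slide as a random (0.00381%) or fixed block (0.103%). The replicate block gave 10 (8.26%, all probes 12.0%). There were 12 with only the arrays compared and 12 in the deposited table (9.92%, all probes 13.0% in each). They were 0 without slide 1, 24 without slide 2 (all probes 17.4%) and 0 without slide 3. Without single arrays they were 0 to 10 (all probes 0.145% to 9.58%). With 8 Gy serum (main 60, 49.6%, all probes 48.0%) they were 36 of 80 with 1 probe per gene (45.0%, all probes 46.0%). Slide as a random block gave 39 (32.2%, all probes 31.9%) and the replicate block 36 (29.8%, all probes 36.6%). Leaving out slides, and recounting the other pathway probes, were chosen after seeing the data. The cause of these shifts was not tested. A fixed slide block exists only for the 10-day set.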
